A study of Solanum lycopersicum and Solanum pennellii and Solanum pimpinellifolium with 52 samples.

Results

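The leaf libraries of a tomato tissue experiment are described here, gene by gene, against the root, stem, inflorescence, vegetative meristem and seedling libraries grown beside them. The 4 leaf libraries were taken by their tissue label from 24 libraries of a complete factorial and 52 libraries in all. They came from Solanum pennellii strain LA716, a wild relative of tomato, in artificial shade and in artificial sun, and from S. lycopersicum strain LA3475, cultivated tomato, in the same 2 light treatments. The other 20 factorial libraries were the 5 other tissues of the same 2 strains under the same 2 treatments, with 1 library per species, tissue and light. Shade light held 0.48 of red relative to far-red and sun light 3.1, both averaged 95 µE, and all 24 factorial libraries came from a growth chamber at 22C. The remaining 28 libraries were seedlings of 4 species under standard light, 7 per species, and were used here for levels alone. Each species is represented by 1 strain, and the labels give neither the age nor the position of the leaves, nor whether libraries came from separate plants or pools. The p-values below therefore measure only the spread between these libraries, which may be technical. In the gene tests the shade and sun libraries of a tissue stood in for replicates. Their spread was taken after a light term shared by the tissues of a species. Light responses particular to a tissue would therefore also be part of it.

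Leaves are the main photosynthetic organ of the plant. Their mesophyll cells are filled with chloroplasts, and nuclear genes for the light-harvesting complexes and for the small subunit of Rubisco, the carbon-fixing enzyme, are as a rule among the most abundant messages of a leaf. Roots take up water and minerals and do not photosynthesise, stems carry the vascular tissue, inflorescences form flowers and pollen, and the vegetative meristem forms the next leaves. A low ratio of red to far-red light is read by phytochromes as shade from neighbours, and tomato responds to it by elongating.

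Expression was deposited as RPKM, that is, reads scaled to the length of the gene model and to the total of the library. The table names its 28298 gene models by Solyc identifiers, in which the digits before the g give the chromosome, and does not pair them with gene names or functions. None of the identifiers matched the reference gene table used here, so lists of photosynthesis genes and tissue markers could not be applied, and the tissue labels were not checked against markers. Genes are therefore given by identifier, at most 2 that were higher and 2 that were lower per comparison, with no role. Reads recovered from the RPKM values summed to between 1886450 and 4877279 per leaf library and to between 1796966 and 5556059 per library in the other 20. At the median gene length and depth an RPKM of 1 stood for 2.40 reads, so values near 1 carry large counting errors.

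Leaf libraries drew more of their reads from their most abundant genes than the other tissues did. The 100 genes with most reads in a library held 37.4% of the reads in the S. pennellii shade leaf library, 44.3% in the S. pennellii sun leaf library, 36.0% in the S. lycopersicum shade leaf library and 44.2% in the S. lycopersicum sun leaf library. In the 20 other libraries the share ran from 13.5% to 34.6%, so the groups did not overlap. The mean was 40.5% ± 4.38 in leaf (SD, n = 4) and 24.8% ± 5.98 in the other tissues (SD, n = 20). The difference of 15.7 percentage points had a two-sided exact permutation p of 9.4e-05, the smallest value the 10626 permutations allow. Within S. pennellii the means were 40.9% in leaf and 26.3% elsewhere, and within S. lycopersicum 40.1% in leaf and 23.3% elsewhere, each with an exact permutation p of 0.015, the smallest possible for 2 libraries against 10. Permuting the leaf label within each pairing of species and light, a test added after the data were seen, gave an exact p of 0.00077, the smallest for 1296 permutations. The groups overlapped for other numbers of genes. The 10 genes with most reads held 13.7% ± 2.38 in leaf and 8.48% ± 2.93 elsewhere, with 5 other libraries above the lowest leaf library (exact permutation p = 0.0025, and 0.11 within S. pennellii and 0.045 within S. lycopersicum). The 1000 genes with most reads held 66.5% ± 3.51 in leaf and 55.3% ± 5.18 elsewhere, with 2 other libraries above the lowest leaf library (exact permutation p = 0.00028). By tissue, the vegetative meristem came nearest to leaf, with 31.3% ± 2.85, and the inflorescence was farthest, with 18.5% ± 3.71 (SD, n = 4 each). The permutations moved single libraries and took the 20 others as 1 group, although they came from 5 tissues. Leaf had the highest mean of 6 tissues, and whether it departs more than the highest of 6 tissues would was not tested. In both species the sun leaf library was above the shade leaf library, a difference with 1 library per cell and no test.

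**Figure D1:**
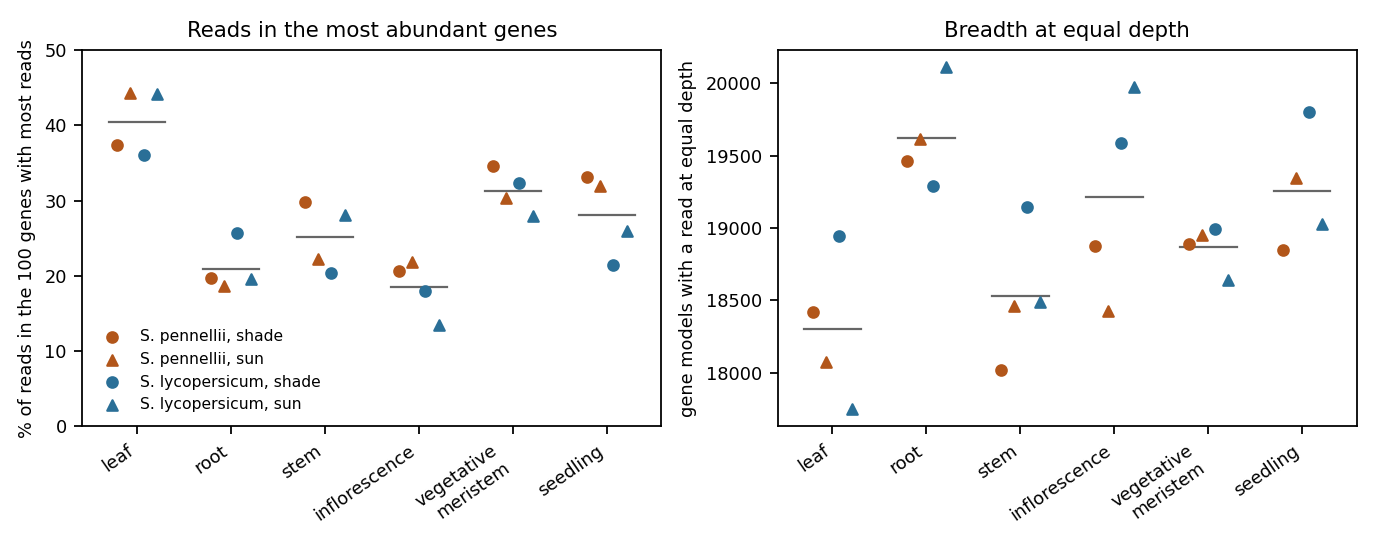
Left, the share of reads (percent) held by the 100 genes with most reads in each library; right, the number of gene models with at least 1 read after each library was thinned to 1796966 reads. Points are single libraries, colours the species, shapes the light treatment and grey lines tissue means; on the left the 4 leaf libraries span 36.0% to 44.3% and the 20 others 13.5% to 34.6%.

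Leaf libraries also detected somewhat fewer genes. At a fixed depth, reads held by the most abundant genes are not left for others, so this count is not independent of the share above. How far it follows from that share was not tested. At an equal depth of 1796966 reads, 18300 ± 513 gene models had a read in leaf (SD, n = 4), against 19100 ± 554 in the other tissues (SD, n = 20; difference -799, two-sided exact permutation p = 0.015). The lowest count, 17747, was that of the S. lycopersicum sun leaf library. The groups overlapped, and without that library the difference was -616 with an exact permutation p of 0.084. Within S. pennellii the exact permutation p was 0.12 and within S. lycopersicum 0.076. Leaf had fewer genes than 4 of the 5 other tissues in S. pennellii shade and fewer than all 5 in S. pennellii sun, S. lycopersicum shade and S. lycopersicum sun. Permuting the leaf label within those pairings gave an exact p of 0.011, and 0.069 without the libraries of S. lycopersicum in sun, where the difference was -565. Stem was the tissue closest to leaf in this count, with 18530 ± 465 gene models (SD, n = 4). With at least 5 reads asked for, the counts were 14120 ± 600 in leaf and 15180 ± 586 elsewhere, a difference of -1060 (exact permutation p = 0.0033).

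The genes that filled the leaf libraries were mostly shared with the vegetative meristem and the seedling. Of the 100 genes with the highest mean share of leaf reads, 78 were also among the top 100 of the vegetative meristem, 64 among those of the seedling, 37 of the stem, 36 of the inflorescence and 19 of the root. The gene with most reads in leaf, Solyc02g071030.1.1, chosen after its values were seen, took 0.956% of the reads in S. pennellii shade leaf, 1.82% in S. pennellii sun leaf, 1.96% in S. lycopersicum shade leaf and 3.23% in S. lycopersicum sun leaf. In the 20 other libraries it took 0.0137% to 1.45%, with a median of 0.314%. Its mean share was 1.15% in the vegetative meristem and 0.0223% in root.

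Against the unweighted mean of the 5 other tissues, averaged over both species, 5497 of the 22512 genes tested were called in leaf, which is 24.4%. A gene was called at a Benjamini-Hochberg adjusted p under 0.05 from limma together with a difference of at least 1 on the log2(RPKM + 1) scale. Of the calls, 1605 were higher and 3892 lower in leaf. The split depends on scaling. As deposited, the median log2 difference over all genes was -0.379, and it was -0.546 against root, -0.281 against stem, -0.434 against inflorescence, -0.191 against vegetative meristem and -0.255 against seedling. After the libraries were scaled by median ratios the median against the mean of the tissues was -0.064, and 2677 genes were higher and 2009 lower. Quantile normalization gave 2509 higher and 2110 lower. All 1605 genes called higher as deposited were also called higher after median-ratio scaling, whereas 2009 of the 3892 called lower were, and no gene turned its direction. In these bulk samples fewer cells of a type and less RNA per cell cannot be told apart. Among the 100 genes with most leaf reads, which were picked for being abundant in leaf, 82 were called higher and 5 lower.

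Ranked by size among called genes whose libraries did not overlap, the first that were higher in leaf were Solyc01g010480.2.1 on chromosome 1 and Solyc01g079470.2.1 on the same chromosome. Solyc01g010480.2.1 had 877 and 402 RPKM in S. pennellii leaf (shade, sun) and 405 and 421 RPKM in S. lycopersicum leaf. In the 20 other libraries it had 0.219 to 123 RPKM, with a median of 15. The leaf mean was 22.8-fold higher, and the log2 difference of 5.25 ± 0.706 (SE) had an adjusted p of 2.7e-05 (limma). The highest of the other libraries was the S. pennellii sun seedling, still below every leaf library. Solyc01g079470.2.1 had 5290 and 4160 RPKM in S. pennellii leaf and 2440 and 1550 RPKM in S. lycopersicum leaf, against 5.86 to 1440 RPKM elsewhere with a median of 84.9. The nearest tissue was the vegetative meristem, with 605 to 1440 RPKM, and the log2 difference from the mean of the tissues was 4.71 ± 0.594 (SE, adjusted p = 1.5e-05, limma).

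The 2 genes furthest below the other tissues were close to undetected in leaf. Solyc08g078940.1.1 had 0 and 0 RPKM in S. pennellii leaf and 0.586 and 1.28 RPKM in S. lycopersicum leaf, which is 2 reads in all. The 20 other libraries had 3.32 to 213 RPKM with a median of 117, and 2580 reads between them (log2 difference -5.94 ± 0.469, SE, adjusted p = 2.2e-07, limma). Solyc01g066910.2.1 had 1 read in all in leaf, 0.67 RPKM in the S. pennellii sun leaf library, and 3.37 to 411 RPKM elsewhere with a median of 64.3 (log2 difference -5.62 ± 0.338, SE, adjusted p = 2.3e-08, limma). Both were lowest, outside leaf, in the S. lycopersicum shade stem library. The highest value of Solyc01g066910.2.1 was that of the S. lycopersicum sun root library.

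**Figure D2:**
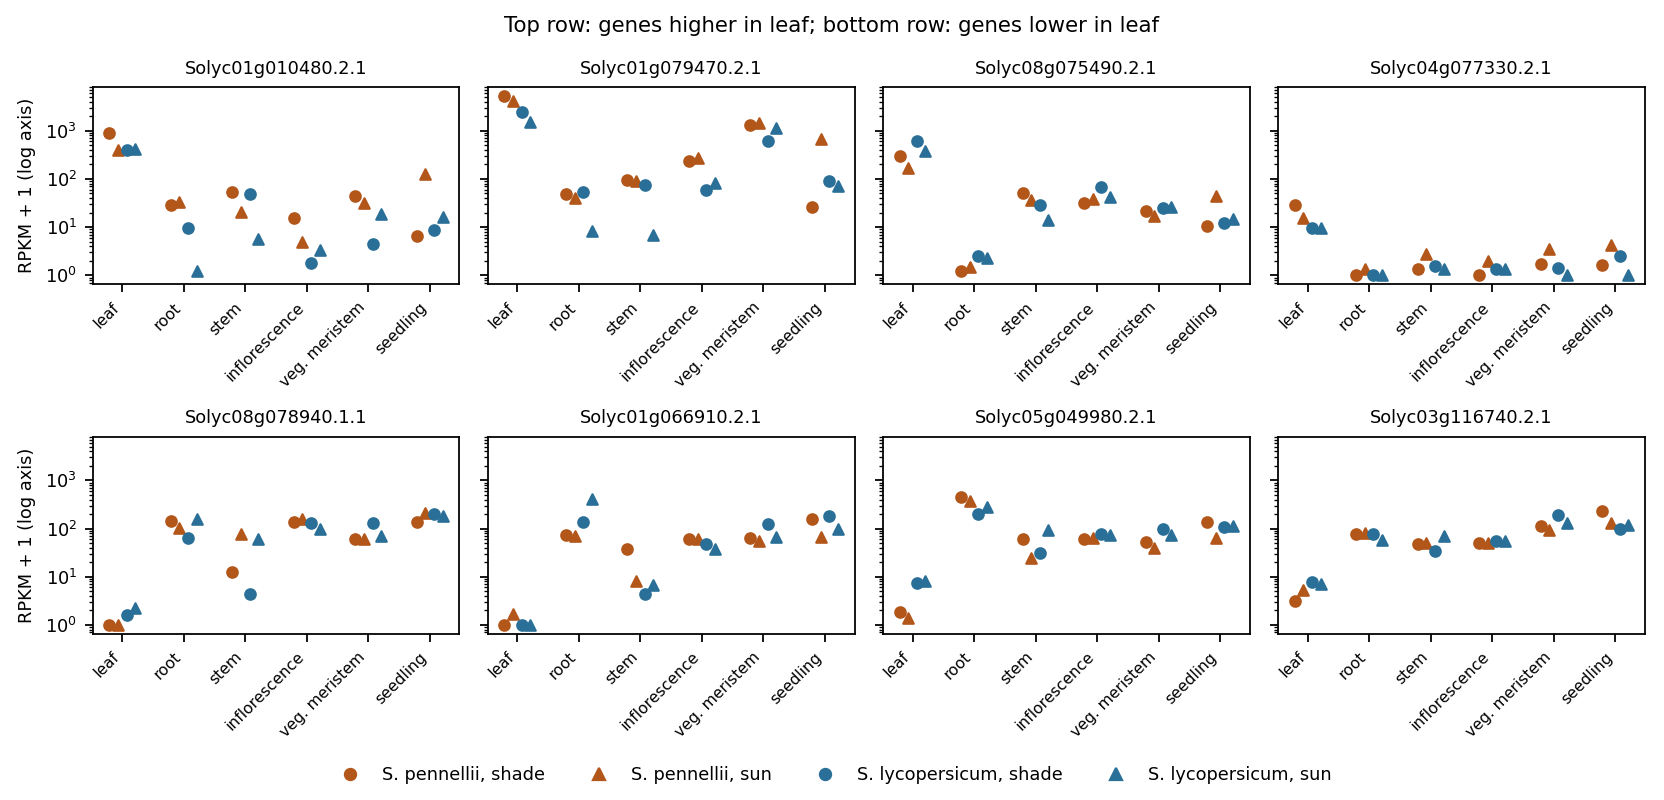
RPKM + 1 (log axis) of 8 genes in each of the 24 libraries, by tissue, with leaf at the left of each panel; colours are species and shapes light treatments, and each point is 1 library. In the top row the 4 leaf libraries lie above the 20 others, and in the bottom row they lie below them.

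The comparisons with single tissues all share the 4 leaf libraries. Root was the tissue leaf differed from most, by the number of genes called. Of the genes tested, 9851 were called, 43.8%, of which 2726 were higher and 7125 lower in leaf; after median-ratio scaling the split was 3892 higher and 3938 lower. Solyc02g086820.2.1 had 2490 and 6780 RPKM in S. pennellii leaf and 4770 and 3300 RPKM in S. lycopersicum leaf, against 4.13 and 5.69 RPKM in S. pennellii root and 0 and 3.15 RPKM in S. lycopersicum root. The leaf mean was 1340-fold higher (log2 difference 10.2 ± 0.439, SE, adjusted p = 1.4e-10, limma). In the vegetative meristem it was as abundant as in leaf, with 3820 to 6310 RPKM. Solyc06g069730.2.1 had 533 to 2760 RPKM in leaf and 0 to 2.81 RPKM in root (log2 difference 9.37 ± 0.367, SE, adjusted p = 7.3e-11, limma). Among the lower genes, Solyc11g011330.1.1 had 1.73 and 0.191 RPKM in S. pennellii leaf and 1.13 and 1.98 RPKM in S. lycopersicum leaf, against 2300 and 2470 RPKM in S. pennellii root and 1560 and 1640 RPKM in S. lycopersicum root. Its leaf mean was 1580-fold lower (log2 difference -9.84 ± 0.357, SE, adjusted p = 3.4e-11, limma), and in stem, inflorescence and vegetative meristem it had at most 4.06 RPKM. Solyc04g014320.1.1 had 0 to 14.2 RPKM in leaf and 1280 to 3290 RPKM in root (log2 difference -9.19 ± 0.713, SE, adjusted p = 5.1e-08, limma). The S. lycopersicum sun root library stood apart for several genes that were low in leaf and high in seedling and vegetative meristem. Solyc05g007880.2.1 had 185 RPKM there and 0.638 to 13.5 RPKM in the other root libraries, Solyc02g089540.2.1 had 126 RPKM and 0 to 5.42 RPKM, and Solyc07g064410.1.1 had 95 RPKM and 3.9 to 12.8 RPKM. Whether this library holds RNA of other tissues was not tested. Without it 9519 genes were called between leaf and root.

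Stem gave 6499 called genes, 28.9% of those tested, 2242 higher and 4257 lower in leaf, and 3244 higher and 2237 lower after median-ratio scaling. Solyc01g066680.2.1 had 90.6 and 78.8 RPKM in S. pennellii leaf and 116 and 87.8 RPKM in S. lycopersicum leaf, and no read in any of the 4 stem libraries. With a floor of 3 reads over the stem libraries, it was at least 140-fold higher in leaf (adjusted p = 8e-12, limma). It was at most 1.62 RPKM in root and was highest in S. lycopersicum seedlings, at 538 and 422 RPKM. Solyc03g123410.1.1 had 424 to 2270 RPKM in leaf and 0.857 to 4.21 RPKM in stem, and it was also low in root (log2 difference from stem 8.20 ± 0.384, SE, adjusted p = 4.7e-09, limma). The reverse was seen for Solyc04g077210.2.1, which had no read in any leaf library, against 88.5 and 74.0 RPKM in S. pennellii stem and 207 and 108 RPKM in S. lycopersicum stem. With the same floor over the leaf libraries it was at least 600-fold lower in leaf (adjusted p = 1.9e-10, limma), and every one of the 20 other libraries had at least 2.34 RPKM. Solyc07g065110.1.1 had 0 to 8.48 RPKM in leaf and 135 to 994 RPKM in stem (log2 difference -7.12 ± 0.429, SE, adjusted p = 2.7e-08, limma).

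Inflorescence gave 8042 called genes, 35.7%, 1979 higher and 6063 lower in leaf, and 3547 higher and 2797 lower after median-ratio scaling. Solyc05g013630.1.1 had 2530 and 837 RPKM in S. pennellii leaf and 1740 and 3570 RPKM in S. lycopersicum leaf, against 63.9 and 55.9 RPKM in S. pennellii inflorescence and 14.7 and 6 RPKM in S. lycopersicum inflorescence (61.8-fold higher; log2 difference 6.24 ± 0.354, SE, adjusted p = 9.4e-09, limma). The inflorescence was the tissue that stood apart for this gene, since the other tissues had 264 to 2510 RPKM. Solyc07g055720.2.1 had 62.3 to 355 RPKM in leaf and 0 to 4.81 RPKM in inflorescence, and its next highest tissue was the vegetative meristem, with 13.7 to 63.2 RPKM. Solyc07g006380.2.1 had 0 and 3.87 RPKM in S. pennellii leaf and 6.87 and 0 RPKM in S. lycopersicum leaf, against 237 and 360 RPKM in S. pennellii inflorescence and 5310 and 1750 RPKM in S. lycopersicum inflorescence. Outside the inflorescence it reached 18.3 RPKM at most (log2 difference of leaf from inflorescence -8.57 ± 0.847, SE, adjusted p = 1.4e-06, limma). Solyc06g007610.2.1 had 0.499 to 5.45 RPKM in leaf and 420 to 1050 RPKM in inflorescence (log2 difference -7.75 ± 0.381, SE, adjusted p = 2.7e-09, limma).

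The vegetative meristem and the seedling were the tissues leaf differed from least. Against the vegetative meristem 4077 genes were called, 18.1%, 1224 higher and 2853 lower in leaf, and 1908 higher and 2097 lower after median-ratio scaling. Without the S. pennellii shade leaf library 761 were higher and 2508 lower. Solyc07g007250.2.1 had 490 and 387 RPKM in S. pennellii leaf and 213 and 29.4 RPKM in S. lycopersicum leaf, against 2.31 and 3.56 RPKM in S. pennellii meristem and 5.97 and 4.77 RPKM in S. lycopersicum meristem (67.4-fold higher; log2 difference 5.24 ± 0.727, SE, adjusted p = 0.00011, limma). It was also expressed in inflorescence, at 15.3 to 146 RPKM. Solyc03g098790.1.1 had 4 to 51.6 RPKM in leaf and 1 read in all in the meristem, and it reached 192 RPKM in inflorescence. Among the lower genes, Solyc07g064410.1.1 had 0.205 to 2.92 RPKM in leaf and 75.1 to 161 RPKM in the meristem, and Solyc02g063000.2.1 had 0 to 5.31 RPKM in leaf and 43.6 to 151 RPKM in the meristem (log2 differences -5.50 ± 0.640 and -5.43 ± 0.586, SE; adjusted p = 2.8e-05 and 1.5e-05, limma). Both of these also had at least 8.97 RPKM in every seedling library of the factorial.

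Against the seedling 4522 genes were called, 20.1%, 1282 higher and 3240 lower in leaf, and 2037 higher and 2140 lower after median-ratio scaling. Solyc06g072350.2.1 had 934 and 2210 RPKM in S. pennellii leaf and 684 and 425 RPKM in S. lycopersicum leaf, against 5.17 and 1.36 RPKM in S. pennellii seedlings and 2.71 and 1.81 RPKM in S. lycopersicum seedlings (385-fold higher; log2 difference 7.97 ± 0.403, SE, adjusted p = 3.9e-08, limma). In stem it had 203 to 1010 RPKM, and in root at most 1.46 RPKM. Solyc04g071800.2.1 had 129 to 341 RPKM in leaf and 0 to 13.8 RPKM in seedlings. Solyc02g089540.2.1 had 1.05 and 0 RPKM in S. pennellii leaf and 8.46 and 5.41 RPKM in S. lycopersicum leaf, against 275 and 81.9 RPKM in S. pennellii seedlings and 295 and 304 RPKM in S. lycopersicum seedlings (log2 difference -6.00 ± 0.749, SE, adjusted p = 3.5e-05, limma). Solyc05g007880.2.1 had 0.309 to 1.28 RPKM in leaf and 36.3 to 225 RPKM in seedlings (log2 difference -6.10 ± 0.807, SE, adjusted p = 5.5e-05, limma).

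**Figure D3:**
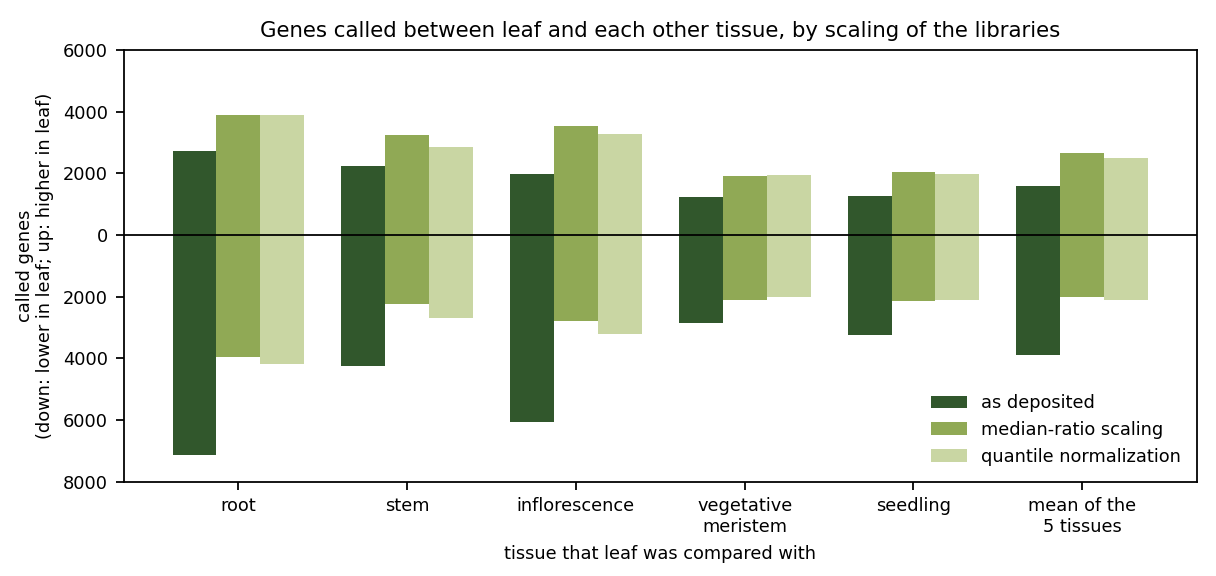
Genes called between leaf and each other tissue and between leaf and the mean of the 5 tissues; bars above 0 count genes higher in leaf and bars below 0 genes lower in leaf, for the RPKM as deposited and for 2 rescalings of the libraries. As deposited every comparison had more lower than higher genes; after median-ratio scaling the mean comparison had 2677 higher and 2009 lower.

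Against at least 1 of the 5 tissues 14894 genes were called, 66.2% of those tested, and 1016 of them were higher in leaf than in one tissue and lower than in another. Genes called higher in leaf than in each of the 5 tissues numbered 219, 0.973% of those tested, and genes called lower in leaf than in each numbered 790, 3.51%. After median-ratio scaling the sets held 475 and 339 genes, which included all 219 of the first and 339 of the second. In the highest set the tissue next to leaf was the vegetative meristem for 73 genes, the stem for 64, the seedling for 31, the root for 28 and the inflorescence for 23. In the lowest set the tissue with the highest mean was the inflorescence for 455 genes, 57.6% of the set, and the root for 222. The median gene of the highest set had 34.5 RPKM in leaf, against 8.08 in the vegetative meristem, 4.84 in seedling, 4.44 in stem, 4.23 in inflorescence and 2.95 in root. The median gene of the lowest set had 4.86 RPKM in leaf, against 45.5 in inflorescence and 21.9 to 27.1 in the other tissues. These levels describe sets chosen by them.

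By the smallest of its 5 pairwise differences, Solyc01g010480.2.1, already described, stood ahead in the highest set, at 4.41 on the log2 scale. Solyc08g075490.2.1 came first by the naming rule among genes of that set not yet named. It had 298 and 166 RPKM in S. pennellii leaf and 610 and 388 RPKM in S. lycopersicum leaf, against 0.223 to 67.3 RPKM elsewhere with a median of 22.7. Its smallest difference from any tissue was 2.94 on the log2 scale, and its difference from their mean was 4.42 ± 0.283 (SE, adjusted p = 4.1e-08, limma). Solyc04g077330.2.1 came next by that rule, at a much lower level, with 28 and 14.3 RPKM in S. pennellii leaf and 8.47 and 8.37 RPKM in S. lycopersicum leaf, against 0 to 3.24 RPKM elsewhere. In the lowest set Solyc08g078940.1.1, also described already, stood at 4.02 by the size of its smallest difference. Among genes of that set not yet named, Solyc05g049980.2.1 had 0.846 and 0.421 RPKM in S. pennellii leaf and 6.48 and 7.26 RPKM in S. lycopersicum leaf, against 23.5 to 446 RPKM elsewhere with a median of 74.8. Root was its highest tissue in both species (log2 difference of leaf from the mean of the tissues -4.66 ± 0.219, SE, adjusted p = 3.8e-09, limma). Solyc03g116740.2.1 had 2.10 to 6.88 RPKM in leaf and 32.7 to 230 RPKM elsewhere, so its leaf libraries were well below all others.

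Both sets were then described in libraries and by features that the selection did not use. The selection did use the factorial seedlings of S. pennellii and S. lycopersicum, so the seedling levels below are not independent of it. In the 28 seedling libraries, a separate experiment with another extraction kit, the median gene of the highest set had 9.47 RPKM in S. pennellii, 4.26 in S. habrochaites, 4.96 in S. pimpinellifolium and 6.14 in S. lycopersicum. The median gene of the lowest set had 17 to 19.9 RPKM in the 4 species, and that of the highest set was below the median of all genes tested in every species but S. pennellii. Over all genes tested the median was 9.26 RPKM in S. pennellii, 6.87 in S. habrochaites, 7.99 in S. pimpinellifolium and 8.07 in S. lycopersicum. The chromosome digits of the identifiers placed 29 genes of the highest set on chromosome 4, 1.59% of the genes tested there, and 6 on chromosome 11, 0.401%. These were the extremes among the 12 chromosomes. For the lowest set the range was from 2.38% on chromosome 12 to 4.14% on chromosome 6. Identifiers whose chromosome digits are 0 were outside both ranges. Of the 188 such genes tested, 5 were in the highest set, 2.66%, and 2 in the lowest, 1.06%. Of the highest set 31 genes, 14.2%, were next to another gene of the set in identifier order, and of the lowest set 58, 7.34%. A larger set holds more neighbours by its size alone. The shares for random sets of these sizes were not computed, so the 2 percentages cannot be compared. The median implied gene length was 894 bases in the highest set, 1113 in the lowest and 951 over all genes tested.

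**Figure D4:**
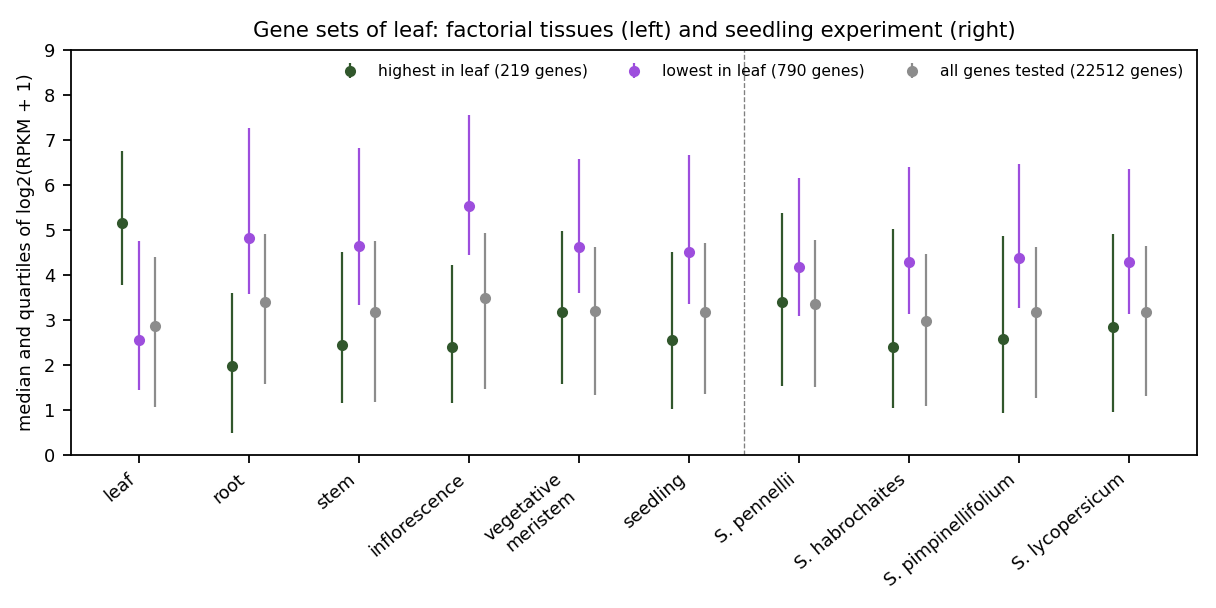
Median (point) and quartiles (bars) of log2(RPKM + 1) over the genes of the highest set, the lowest set and all genes tested, in the 6 factorial tissues (left of the dashed line, means of 4 libraries) and in the seedling experiment by species (right, means of 7 libraries). In leaf the highest set stands at 5.15 and the lowest at 2.55. In each seedling group the lowest set stands above the highest, and factorial seedlings were among the tissues used to choose both sets.

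The same contrast was made in each species. In S. pennellii 5893 genes were called, 26.2%, 1816 higher and 4077 lower in leaf than in the mean of the other tissues. In S. lycopersicum 5407 were called, 24%, 1404 higher and 4003 lower. After median-ratio scaling the splits were 2992 higher and 2410 lower in S. pennellii and 2437 higher and 1872 lower in S. lycopersicum. The counts rested on single leaf libraries. In S. pennellii 1108 genes were higher and 3681 lower without the shade leaf library, and 1604 higher and 2690 lower without the sun leaf library. In S. lycopersicum 842 were higher and 4194 lower without the shade leaf library, and 975 higher and 1585 lower, 2560 in all, without the sun leaf library. Both species called 855 genes higher, 47.1% of the S. pennellii and 60.9% of the S. lycopersicum genes, and 2204 genes lower, 54.1% and 55.1%. Opposite calls were made for 9 genes that were higher and 20 that were lower in S. pennellii leaf. Across the 22512 genes the 2 differences had a Pearson correlation of 0.682 and a Spearman correlation of 0.602, given as a description, since genes are not independent and the libraries were read against 1 set of gene models. Of the highest set, 190 of 219 genes were called higher in each species, and of the lowest set 749 of 790 were called lower in each. Both sets were chosen on contrasts averaged over these same libraries of both species, so much of this sharing follows from the choice. When all 5 pairwise calls were asked for within a species, 166 genes were highest in leaf in S. pennellii, 0.737%, and 116 in S. lycopersicum, 0.515%, with 25 in both. The lowest counts were 802, 3.56%, and 422, 1.87%, with 222 in both.

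The genes with the largest differences within each species, among those not yet named, did not all differ between the species. Solyc04g064870.2.1 had 86.8 and 85.1 RPKM in S. pennellii leaf, against 0 to 7.30 RPKM in the 10 other S. pennellii libraries (41.9-fold higher; log2 difference 5.25 ± 0.381, SE, adjusted p = 4.7e-07, limma). In S. lycopersicum leaf it had 11.1 and 2.93 RPKM, and the difference between the species had an adjusted p of 0.002. Solyc09g084470.2.1 had 80.0 and 239 RPKM in S. pennellii leaf and 0 to 26.1 RPKM in its other tissues. In S. lycopersicum leaf it had 65.7 and 3.16 RPKM, and the species difference did not pass (adjusted p = 0.18, limma). Solyc04g074740.2.1 and Solyc08g066880.2.1 had no read in either S. pennellii leaf library. With the floor of 3 reads over the 2 libraries, they were at least 176-fold and at least 112-fold below the mean of the 10 other S. pennellii libraries. Those libraries had 2.56 to 371 RPKM of the first and 0.447 to 273 RPKM of the second. In the S. pennellii meristem the second had only 0.869 and 0.447 RPKM, so leaf did not stand apart from that tissue. Both were also lower in S. lycopersicum leaf than the mean of its other tissues (log2 differences -2.09 ± 0.507 and -2.56 ± 0.669, SE, adjusted p = 0.0057 and 0.0088, limma). They were not lower than each tissue. The first had 4.92 and 11.7 RPKM in S. lycopersicum leaf, 5.85 and 3.29 in inflorescence and 9.01 and 1.37 in meristem. The second had 0 and 2.56 RPKM in leaf and 0.75 and 0 in meristem. The species difference passed for the first (adjusted p = 0.04, limma) and not for the second (0.28). In S. lycopersicum, Solyc12g006140.1.1 had 7430 and 9470 RPKM in leaf and 11.2 to 2190 RPKM in the 10 other libraries (12.9-fold higher; log2 difference 4.89 ± 0.541, SE, adjusted p = 1.9e-05, limma). In S. pennellii leaf it had 5410 and 10000 RPKM and was also higher than the mean of the other tissues (log2 difference 3.26 ± 0.541, SE). It was not higher than each of them, since the S. pennellii seedlings had 5520 and 5680 RPKM. The species difference did not pass (adjusted p = 0.31, limma). Solyc07g041920.2.1 had 162 RPKM in the shade and 18.5 RPKM in the sun leaf library of S. lycopersicum, and at most 5.87 RPKM in its other tissues. In S. pennellii leaf it had 1.2 and 4.77 RPKM, and the species difference passed (adjusted p = 0.013, limma). Solyc04g071070.2.1 had 4.43 and 13.9 RPKM in S. lycopersicum leaf against 51.9 to 8030 RPKM in its other tissues, and Solyc04g008230.2.1 had 1.15 and 0.720 RPKM against 15.5 to 302 RPKM. In S. pennellii leaf the first had 96.3 and 13.8 RPKM, against 17.4 to 10600 RPKM in its other tissues. The S. pennellii meristem, at 28.6 and 17.4 RPKM, was below the shade leaf library. The second had 1.26 and 0.974 RPKM in S. pennellii leaf, against 6.39 to 84.9 RPKM in its other tissues. Against the mean of those tissues both genes were lower in leaf (log2 differences -4.06 ± 0.689 and -3.04 ± 0.701, SE, adjusted p = 0.00036 and 0.0034, limma). Their species differences did not pass (adjusted p = 0.45 and 0.4).

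The difference between the species in the leaf contrast was called for 345 genes, 1.53% of those tested, 133 with the higher contrast in S. pennellii and 212 with the lower. Which direction held more genes turned round without 1 of 2 libraries: 187 were higher and 108 lower without S. lycopersicum shade leaf, and 124 higher and 116 lower without S. pennellii sun leaf. In 65 of the 133 the leaf contrast itself was called in S. pennellii alone, in 44 in S. lycopersicum alone, and in 8 it was called higher in leaf in S. pennellii and lower in S. lycopersicum. The reverse, lower in S. pennellii and higher in S. lycopersicum, held for 18 of the 212. Solyc01g073640.2.1 was one of these. It had 16.6 and 84.6 RPKM in S. pennellii leaf, against 199 to 1860 RPKM in the other S. pennellii tissues. In S. lycopersicum leaf it had 822 and 869 RPKM, against 39.6 to 2600 RPKM in the other tissues. The log2 contrasts were -3.88 ± 0.381 in S. pennellii and 1.66 ± 0.381 in S. lycopersicum, and the difference of -5.54 ± 0.539 (SE) had an adjusted p of 0.00044 (limma). Solyc06g035520.2.1 had 114 and 68.6 RPKM in S. pennellii leaf, 0 to 10.1 RPKM in its other tissues, and at most 1.24 RPKM in any S. lycopersicum library (difference 4.31 ± 0.612, SE, adjusted p = 0.0032, limma, and 0.13 with a pseudocount of 0.1).

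The 2 other genes with the largest species difference were less stable. Solyc01g006580.2.1 had 102 and 315 RPKM in S. pennellii leaf, 0 to 349 RPKM in its other tissues, and 0.256 and 0 RPKM in S. lycopersicum leaf (difference 4.93 ± 0.969, SE, adjusted p = 0.022, limma). The call was lost without any 1 of the 4 leaf libraries, with adjusted p between 0.076 and 0.12. Solyc03g121900.1.1 had 2.89 and 59.4 RPKM in S. pennellii leaf and 385 and 973 RPKM in S. lycopersicum leaf, against 27.3 to 2200 and 13.9 to 950 RPKM in the other tissues of each (difference -5.52 ± 1.01, SE, adjusted p = 0.015, limma). Its adjusted p was 0.11 without the S. pennellii shade leaf library and 0.11 without the S. lycopersicum sun leaf library. The count of 345 itself was 99 without the first and 82 without the second of these libraries, with 29 higher and 70 lower, and 19 higher and 63 lower.

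**Figure D5:**
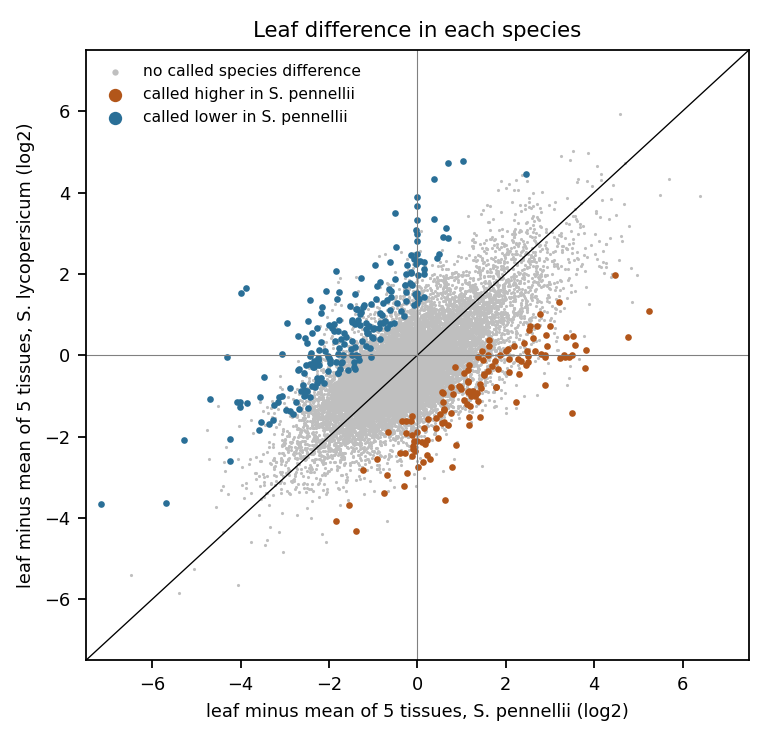
Log2 difference of leaf from the mean of the 5 other tissues for each of the 22512 genes, in S. pennellii (x axis) and S. lycopersicum (y axis); the diagonal marks equal differences and coloured points are the 345 genes with a called difference between the species. Most genes lie along the diagonal, with 133 coloured genes on its S. pennellii side and 212 on the other.

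No gene was called for a response to shade in leaf that differed from the response in the other tissues. The light by leaf term of limma called 0 genes, 0%, with 1403 genes, 6.23%, at an unadjusted p under 0.05, and limma voom on recovered reads also called 0. With 1 library per species and light, this term rested on 4 leaf libraries. Without either S. lycopersicum leaf library 7 genes were called. The plain difference of shade from sun in leaf, added after the data were seen, was called for 3 genes, 0.0133%, all higher in shade (1620 at an unadjusted p under 0.05; 1 called with limma voom). Solyc09g008670.2.1, one of the 3, had 165 RPKM in shade and 21.1 RPKM in sun in S. pennellii leaf, and 35.6 RPKM in shade and 0 RPKM in sun in S. lycopersicum leaf (log2 difference 4.05 ± 0.526, SE, adjusted p = 0.02). Outside leaf it was found in inflorescence, at 21.4 to 80.9 RPKM, with at most 1.14 RPKM in the other tissues. Its adjusted p was 0.056 without the S. pennellii shade, 0.057 without the S. pennellii sun, 0.21 without the S. lycopersicum shade and 0.22 without the S. lycopersicum sun leaf library, and 0.051 without either S. pennellii inflorescence library. Another of the 3, Solyc01g007430.2.1, rested on 5 reads in all. It had 12.1 RPKM in S. pennellii shade leaf, 2.38 RPKM in S. lycopersicum shade leaf and 0 RPKM in every other factorial library. Genes were also counted by size alone, with no test, among those with at least 5 RPKM in shade or sun leaf of a species. In S. pennellii leaf 285 of 13346 genes were higher in shade than in sun by at least 2 on the log2(RPKM + 1) scale, and 116 were lower. In S. lycopersicum leaf 526 of 13675 were higher and 42 lower. The median gene lay 0.231 higher in shade in S. pennellii leaf and 0.317 higher in S. lycopersicum leaf on that scale. These counts used the RPKM as deposited. In S. pennellii leaf the median-ratio factors were 0.817 in shade and 0.674 in sun. In S. lycopersicum leaf they were 0.873 and 0.696. Whether higher genes would still outnumber lower ones after such scaling was not tested. The species shared 21 of the higher genes and 0 of the lower ones, and 40 genes moved in opposite directions.

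Over all genes tested, leaf libraries were most like the vegetative meristem. The Spearman correlation of RPKM between a leaf and a meristem library of the same species was 0.857 to 0.916 in S. pennellii and 0.855 to 0.887 in S. lycopersicum. With seedling it was 0.819 to 0.882 and 0.844 to 0.865, and with root, the least alike tissue, 0.655 to 0.702 and 0.699 to 0.744. The shade and sun leaf libraries of a species correlated at 0.936 in S. pennellii and 0.934 in S. lycopersicum. Leaf libraries of the 2 species correlated at 0.843 to 0.879, which overlaps the range between leaf and meristem within a species. These are correlations across genes, of libraries counted on the same gene models, and they have no p.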

How the data were processed

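RNA-seq libraries of S. pennellii and S. lycopersicum were compared, 4 of leaf and 20 of other tissues. The authors deposited RPKM per gene model, and CASAVA 1.4 and BWA 0.5.7 appear as tools per the submitters' processing notes. How reads were assigned to gene models, and to which genome build, is not given in the sources used here, so near-identical gene copies may share reads. All values above 0 came out as whole multiples of 1 read (100%, tolerance 0.02 reads) in the 25942 gene models with a value, which gave the depths; 2356 models were at 0 throughout. The files do not pair identifiers with names, and 0 matched the reference table.

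Tests covered genes that reached an RPKM of 1 in 2 or more of the 24 libraries. They were run on log2(RPKM + 1), a scale that understates changes of low genes, with limma 3.58.1 in R 4.3.3 (trended prior, robust estimation, a mean per species and tissue, a light term per species, 10 residual degrees of freedom). P-values were adjusted by Benjamini-Hochberg over all genes tested. Library measures were compared by two-sided exact permutation tests (numpy 2.4.6). They were also compared, in a test added after the data were seen, by permuting the leaf label within each pairing of species and light. The steps were tested on simulated data. A group without reads was given a floor of 3 reads, which covers counting error only. Alternatives were pseudocounts, filters, median-ratio and quantile scaling, limma voom on recovered reads, an additive fit and leaving out each library. Named genes were the 2 per direction with the largest differences among called genes with no overlap of libraries and a mean of at least 5 RPKM in the higher group, ranked for the highest and lowest sets by the smallest pairwise difference and for the species difference without the rule on overlap; a gene already named was passed over. The leaf libraries, gene sets and tests were chosen with earlier results of these data known.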

Additional observations from a re-analysis of the deposited data

Results flagged for a closer look

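Among 50 groups of 4 libraries examined for the named genes and for 2 library measures, 6 held a library far from the other 3. In these the gap to the nearest library, as a share of the range of the group, exceeded 0.829. About 1 in 20 groups would pass if each held 4 like replicates with normal spread. These groups mix 2 species and 2 light treatments, and where 3 libraries have no read the share is 1.0 by construction. The 6 therefore cannot be set against that rate. In leaf, the S. pennellii shade library was highest for Solyc01g010480.2.1 (877 RPKM, gap share 0.96), the S. pennellii sun library for Solyc01g066910.2.1 (0.67 RPKM and 1 read, gap share 1.0) and the S. lycopersicum shade library for Solyc02g063000.2.1 (5.31 RPKM, gap share 0.859). In the vegetative meristem the S. pennellii shade library held the 1 read of Solyc03g098790.1.1 (gap share 1.0). In seedlings the S. pennellii sun library was highest for Solyc04g071800.2.1 (13.8 RPKM, gap share 0.964) and lowest for Solyc02g089540.2.1 (81.9 RPKM, gap share 0.868). The part of depth or handling in these values was not tested.

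A difference between the species in the leaf contrast was called by limma for 345 genes. The 4 named ones had differences, S. pennellii minus S. lycopersicum, of 4.93 (Solyc01g006580.2.1), 4.31 (Solyc06g035520.2.1), -5.54 (Solyc01g073640.2.1) and -5.52 (Solyc03g121900.1.1) on the log2 scale.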

How the results depend on the processing

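No named gene changed direction under the alternatives run, and the cause of the moves below was not tested except where stated. A pseudocount of 5, which shrinks every difference by construction, lowered the called genes to 2983 against the mean of the tissues, 6498 against root, 4133 against stem, 5174 against inflorescence, 2374 against vegetative meristem, 2611 against seedling, 3650 in S. pennellii, 2973 in S. lycopersicum and 352 in the lowest set. Median-ratio scaling gave 475 highest and 339 lowest genes and 669 with a species difference; quantile normalization gave 407, 374 and 539. A pseudocount of 0.1 gave 205 genes with a species difference. The light by leaf term called 2 genes after median-ratio scaling, after quantile normalization, with no filter on low values and in the additive fit with a block for each pairing of species and light, and 1 gene with a pseudocount of 5. That additive fit, in which leaf is paired with the other tissues of the same species and light, called 5333 genes against the mean of the tissues, 9524 against root, 6115 against stem, 7635 against inflorescence, 3467 against vegetative meristem, 4039 against seedling, 165 highest and 743 lowest.

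Leaving out 1 library at a time gave 5040 to 5916 called genes against the mean of the tissues, 9133 to 10290 against root, 5918 to 6654 against stem, 7321 to 8342 against inflorescence, 3226 to 4474 against vegetative meristem, 4042 to 4725 against seedling, 147 to 278 highest and 637 to 1038 lowest genes, 4294 to 6058 in S. pennellii and 2560 (without the sun leaf library) to 5879 in S. lycopersicum. The light by leaf calls ran from 0 to 7. With each of the 4 leaf libraries alone left out in turn, the share of the top 100 genes differed by 14.4 to 17.2 points and the genes at equal depth by -1020 to -616. The species difference ran from 82 to 559 genes: 99 without S. pennellii shade leaf, 82 without S. lycopersicum sun leaf, 203 and 202 without the meristem of S. pennellii in shade and in sun, 222 and 217 without that of S. lycopersicum in shade and in sun, 226 without S. pennellii sun root, 539 without S. lycopersicum shade inflorescence and 559 without S. lycopersicum shade root. Where 1 leaf library of a species was left, it was assumed to vary like the other groups. For single genes, Solyc01g006580.2.1 missed the threshold with a pseudocount of 0.1 and with limma voom (adjusted p = 0.074 and 0.055). Solyc09g008670.2.1 missed it with a pseudocount of 0.1 and with limma voom (adjusted p = 0.31 and 0.052).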

Other observations

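Leaf libraries of the factorial were also set beside the separate seedling experiment, which used another extraction kit. The Spearman correlation across 22512 genes with the mean of the 7 seedling libraries of the same species was 0.868 to 0.877 for S. pennellii leaf and 0.874 to 0.898 for S. lycopersicum leaf. For the vegetative meristem it was 0.914 to 0.919 and 0.921 to 0.947, and for root 0.709 to 0.735 and 0.722 to 0.739.

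In the highest set the longest run of neighbouring identifiers held 3 genes on chromosome 7. Their means in leaf were 10.9, 6.97 and 64.8 RPKM, and in the 5 other tissues they reached at most 1.28, 1.69 and 16.6 RPKM.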
